A study of Mus musculus with 6 samples.

Results

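The unfolded protein response and the integrated stress response were followed through 39 genes. They were chosen as known stress sensors, regulators of translation, transcription factors, and genes that these factors switch on. The genes were chosen with earlier results of these data known. Measured values played no part in tying probes to genes. A gene's probes were those whose transcript accession on the array names it in RefSeq. All 39 genes were represented, by 57 probes, among 23462 gene symbols named on the array. Of these, 34 had a probe that could be tested, among 13138 genes tested in all.

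TM3, an established line derived from mouse Leydig cells, the androgen-producing cells of the testis, was cultured with 10 µM 4-nitrophenol (PNP), a pesticide breakdown product, for 24 h. Total RNA of 3 exposed and 3 control samples (0 µM, no treatment named) was hybridised to single-colour Agilent whole-genome arrays, 1 array per sample. No source used here says whether replicates came from separate cultures or which solvent carried PNP, so the p-values reflect only how these 6 samples vary, and that variation may be technical. TM3 is 1 line, and all samples share its background. Signals are log2 values relative to the 75th percentile of each array, so a negative value is a signal below that percentile, and a difference is PNP minus control, given ± its standard error (SE).

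When misfolded proteins build up in the endoplasmic reticulum (ER), the membrane sensors IRE1, PERK and ATF6 start a programme that raises folding and disposal capacity. PERK is also a kinase of the translation factor eIF2, as are HRI and GCN2, which sense haem shortage and amino acid shortage. Phosphorylated eIF2 slows most protein synthesis but favours translation of ATF4, a transcription factor for amino acid supply and for the stress factors CHOP and ATF3. The promoters of many ER genes hold the ER stress response element (ERSE), bound by ATF6 and XBP1, and many ATF4 targets hold a C/EBP-ATF response element (CARE).

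Members whose promoter windows hold these elements are shown first, to let the differences be read beside the elements known for each branch. Promoter windows ran from 250 bases before to 50 after the start of transcription, in RefSeq on GRCm38.p6, and were at hand for 33 of the 39 genes. ERSE was searched on both strands as CCAAT, 9 bases of any kind and CCACG, and was found in 6 of the 33 genes (18.2%), against 0.137% of all 27025 genes in the table. In these sequences, read 5′ to 3′ along the gene's strand, capitals mark the element, which begins with CGTGG where it lies on the opposite strand.
Calr (chr8:84847055-84847113, minus strand): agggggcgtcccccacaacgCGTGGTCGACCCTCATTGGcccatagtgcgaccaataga
Canx (chr11:50325780-50325838, minus strand): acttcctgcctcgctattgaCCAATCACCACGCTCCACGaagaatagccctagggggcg
Pdia6 (chr12:17266471-17266529, plus strand): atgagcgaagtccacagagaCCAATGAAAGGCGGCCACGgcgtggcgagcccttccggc
Creld2 (chr15:88819500-88819558, plus strand): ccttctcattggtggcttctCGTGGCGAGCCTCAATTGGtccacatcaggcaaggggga
Syvn1 (chr19:6046512-6046570, plus strand): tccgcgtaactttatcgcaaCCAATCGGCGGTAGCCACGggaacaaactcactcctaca
Derl3 (chr10:75893222-75893280, plus strand): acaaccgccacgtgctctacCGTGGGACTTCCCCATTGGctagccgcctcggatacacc

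Calreticulin (Calr), calnexin (Canx) and the disulfide isomerase Pdia6 fold glycoproteins and other secreted proteins, and Creld2 is a secreted ER stress factor. Syvn1 is the ubiquitin ligase and Derl3 a membrane component of ER-associated degradation (ERAD). The variant ERSE-II, searched as ATTGG, 1 base and CCACG, was found in Herpud1, an ERAD scaffold, and in 0.0444% of all genes.
Herpud1 (chr8:94386357-94386407, plus strand): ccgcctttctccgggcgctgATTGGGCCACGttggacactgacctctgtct

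CARE was searched as TGATG, 1 base and AA, and was found in 5 of the 33 genes (15.2%), against 4.51% of all genes. These were Atf3, the glutathione-degrading enzyme gene Chac1, asparagine synthetase (Asns), Herpud1 and the pseudokinase Trib3, whose match lay after the start of transcription and is not shown. Capitals again mark the element, which begins with TT where it lies on the opposite strand. TGACGTGG, the core of a further XBP1 element (UPRE), was found in none of the 33 and in 0.714% of all genes. A match describes letters in the window and is not evidence of binding.
Atf3 (chr1:191183416-191183463, minus strand): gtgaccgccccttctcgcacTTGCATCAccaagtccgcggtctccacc
Chac1 (chr2:119351029-119351076, plus strand): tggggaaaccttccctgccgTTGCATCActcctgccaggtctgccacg
Asns (chr6:7693210-7693252, minus strand): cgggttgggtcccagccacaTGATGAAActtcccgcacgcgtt
Herpud1 (chr8:94386297-94386344, plus strand): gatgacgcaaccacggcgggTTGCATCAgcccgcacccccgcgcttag

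**Figure D1:**
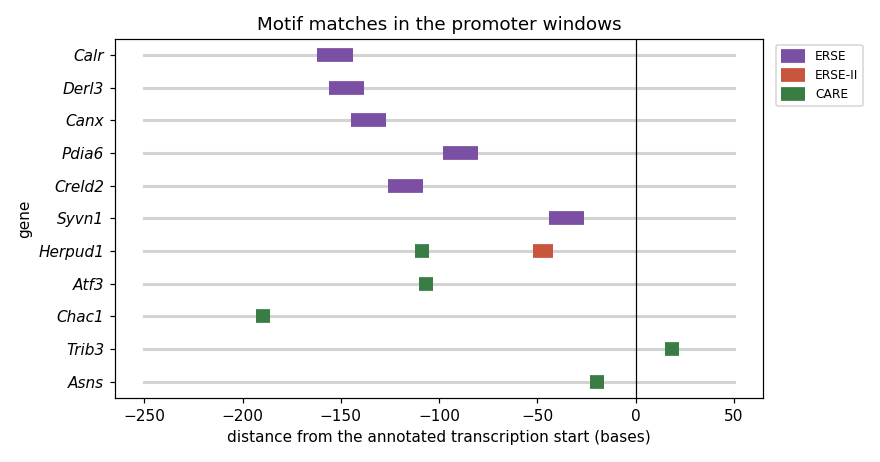
Position of each element match in the promoter window (x axis, bases from the start of transcription), with 1 line per gene that held a match and colours for ERSE, ERSE-II and CARE. The 6 ERSE matches began between positions -162 and -44.

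None of the 34 tested genes passed an adjusted p of 0.05 in limma, nor did any of the 13138 genes (0%). At an unadjusted p under 0.05 the count was also 0 of 34, against 6.52% of all genes. Differences were positive for 26 of the 34 genes, against 63% of all genes, with a median of 0.09 against 0.04. Among the tested genes they ran from -0.14 for Eif2ak1 to 0.29 for Slc7a5. All 34 intervals (95%) left out a 2-fold change in either direction, as did those of 12866 of the 13138 genes. A 1.5-fold rise lay outside 33 of the members' intervals and 11893 of all genes' intervals. The exception among members was Hyou1, with an upper bound of 1.55-fold. A 1.5-fold fall lay outside 33 of the members' intervals and 12206 of all genes' intervals. The exception there was Eif2ak1, with a lower bound of 0.658-fold. The intervals reflect only how these 6 samples vary, with outlier spots left out.

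How far the genes stood above the array as a whole moved with 1 control array and with the filter on dim probes. Without control replicate 2, 22 of 33 genes were positive, and the median lay 0.00099 above that of all genes, against 0.05 with it. With all 6 arrays and no filter on dim probes, the median lay below that of all genes, at -0.0091, with 16 of 35 members above it. The share of positive differences also moved with the scaling. On arrays scaled to their median it was 67.6% for the members and 44.2% for all genes, and after quantile normalization 58.8% and 53.7%. The 75th percentile that scaled each array was 12.39 to 12.50 (log2) on the controls and lower, at 12.14 to 12.37, on the PNP arrays. That separation gave p = 0.1 in the two-sided exact permutation test, the smallest it allows here. How far it moved the shares was not tested beyond these scalings.

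**Figure D2:**
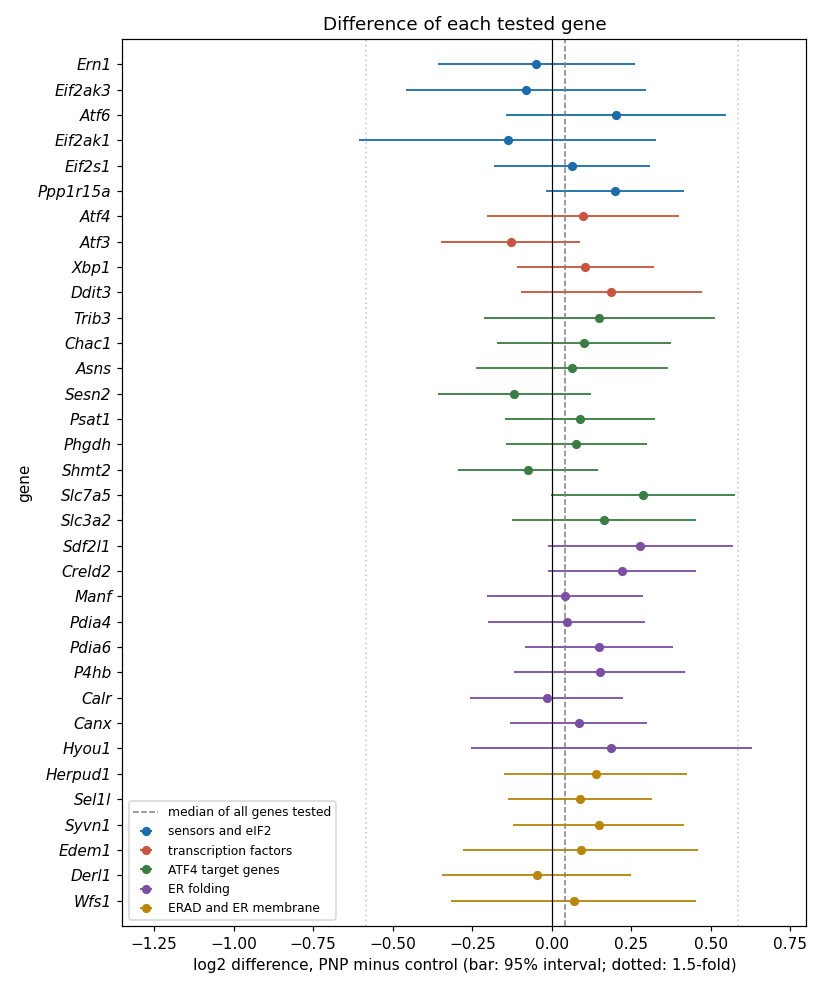
Log2 difference (PNP minus control, x axis) of each of the 34 tested genes, with its 95% interval as a bar and colours for the roles. The dashed line marks the median of all genes (0.04), the dotted lines mark 1.5-fold, and every interval holds 0.

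The sensor and eIF2 group, with 6 of 8 genes tested, had 3 positive and 3 negative differences and a median of 0.01. Ern1, which encodes the IRE1 kinase and nuclease, gave -3.0, -3.28 and -3.30 in control replicates 1 to 3 and -3.30, -3.02 and -3.41 in the PNP replicates. Its groups overlapped, with a difference of -0.05 ± 0.13 (SE; limma adjusted p = 0.969). Eif2ak3, the PERK gene, gave -3.75, -4.26 and -3.72 in controls and -4.06, -3.79 and -4.12 with PNP. The arrays at -3.79 and above, 2 controls and 1 PNP array, sat in odd columns of the slide and the other 3 in even columns, whatever the treatment. A brighter Eif2ak3 probe, not tested for its outlier spots, did not divide by columns. With those spots kept it read -0.68, -0.82 and -0.91 in controls and -0.61, -0.53 and -0.97 with PNP. Its difference was positive, at 0.10 ± 0.14. Atf6, the cleaved membrane factor, gave 1.12 and 1.40 in control replicates 2 and 3, its spot on control replicate 1 being an outlier, and 1.51, 1.28 and 1.61 with PNP. PNP replicate 2 lay between the controls, and the difference of 0.20 ± 0.15 had an adjusted p of 0.900.

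Eif2ak1, the haem-regulated kinase HRI, had the lowest difference of the set. It gave -2.01, -2.01 and -2.35 in the control replicates against -2.72, -1.91 and -2.16 in the PNP replicates, so the lowest and the highest array were both PNP arrays (difference -0.14 ± 0.20, adjusted p = 0.951). Eif2s1, the phosphorylated subunit of eIF2, differed by 0.06 ± 0.10.

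Ppp1r15a (GADD34), the stress-induced phosphatase subunit that reverses eIF2 phosphorylation and a target of ATF4 itself, gave 0.66, 0.49 and 0.49 in controls and 0.79, 0.72 and 0.73 with PNP. Every PNP array lay above every control array, which also held for 9.66% of all genes. The difference was 0.20 on the log2 scale, or 1.15-fold (95% interval 0.986 to 1.33; adjusted p = 0.795). Of the tested members, 4 had every PNP value above every control value, the others being Sdf2l1, Creld2 and Syvn1. Only Sesn2 had every PNP value below, as did 3.75% of all genes, and 13.4% of all genes were apart in either direction.

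The transcription factors were all tested, with 3 positive differences of 4. Atf4 gave 3.25, 2.96 and 3.10 in controls and 3.29 and 3.12 in PNP replicates 1 and 3. The ranges overlapped, and the difference was 0.10 ± 0.13 (adjusted p = 0.951). ATF4 is controlled chiefly by translation, which an mRNA array does not measure. Ddit3, which encodes CHOP, the factor tied to cell death under lasting ER stress, gave 2.56, 2.38 and 2.43 in controls and 2.87, 2.48 and 2.58 with PNP. PNP replicate 1 stood above the other 5 arrays, and PNP replicate 2 lay below control replicate 1 (difference 0.19 ± 0.12, adjusted p = 0.878).

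Xbp1, whose mRNA is spliced by IRE1, gave 2.60, 2.54 and 2.51 in controls and 2.74, 2.66 and 2.56 with PNP. PNP replicate 3 lay within the control range, and the difference was 0.11 ± 0.09 (adjusted p = 0.927). These values do not separate spliced from unspliced Xbp1. Atf3, a repressor induced by many stresses, was the negative one, at -1.54, -1.34 and -1.38 in controls and -1.54, -1.57 and -1.54 with PNP. Control replicate 1 lay among the PNP arrays, and the difference was -0.13 ± 0.09 (adjusted p = 0.900).

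**Figure D3:**
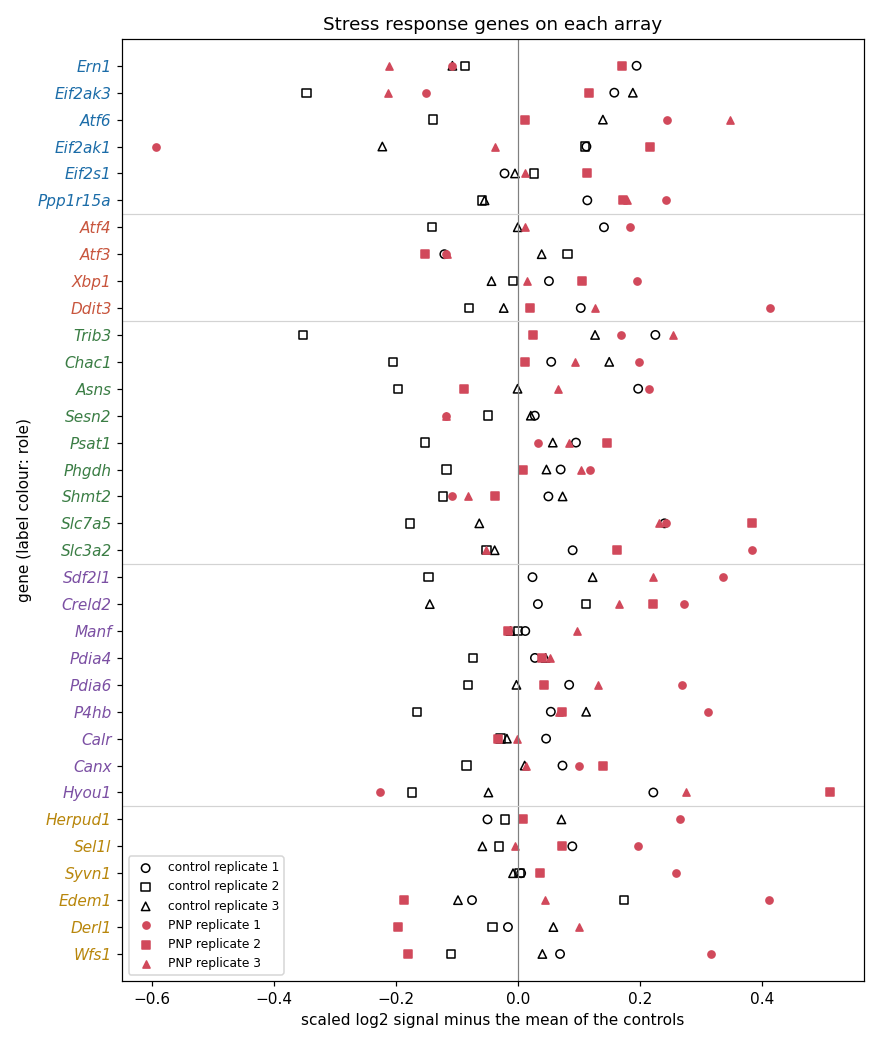
Scaled log2 signal of each tested gene on each array minus the gene's control mean (x axis). Control and PNP arrays have different colours and genes are grouped by role. The groups overlap for most genes, as for Trib3 (signals of 1.80 to 2.38 in controls and 2.18 to 2.41 with PNP). They lie apart for Ppp1r15a, Sdf2l1, Creld2, Syvn1 and, only with its outlier spot left out, Sesn2.

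Among the ATF4 target genes, 9 of 10 were tested, 7 differences were positive and the median was 0.09. Slc7a5, the light chain of the large neutral amino acid transporter LAT1, had the highest difference of the 34 tested members. It gave -2.94, -3.36 and -3.25 in controls and -2.94, -2.80 and -2.95 with PNP, so control replicate 1 lay level with the exposed arrays and the others lay below. The difference was 0.29 on the log2 scale, or 1.22-fold (95% interval 0.997 to 1.49; adjusted p = 0.766). Slc3a2, the heavy chain that pairs with it, gave 4.22, 4.08 and 4.09 in controls and 4.51, 4.29 and 4.08 with PNP. PNP replicate 3 was level with the lowest control there (difference 0.16 ± 0.13, adjusted p = 0.910).

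Trib3, which restrains CHOP and AKT signalling, gave 2.38, 1.80 and 2.28 in controls and 2.32, 2.18 and 2.41 with PNP. Chac1 gave 1.85, 1.59 and 1.94 in controls and 1.99, 1.80 and 1.89 with PNP. Asns gave 2.92, 2.53 and 2.73 in controls and 2.94, 2.64 and 2.79 with PNP. In all 3 genes, which hold CARE, control replicate 2 was the lowest array and the other controls lay within or beside the PNP range. Their differences were 0.15 ± 0.16, 0.10 ± 0.12 and 0.06 ± 0.13, with adjusted p between 0.946 and 0.961.

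The serine and one-carbon genes were spread around 0. Phgdh and Psat1, of serine synthesis, differed by 0.08 ± 0.10 and 0.09 ± 0.10, and mitochondrial Shmt2 by -0.08 ± 0.10. Sesn2, which encodes a leucine-binding inhibitor of mTORC1, gave 0.45, 0.37 and 0.44 in controls and 0.31 in both PNP replicates 1 and 3, with no usable spot on PNP replicate 2. Both PNP values lay below all controls, and the difference was -0.12 ± 0.10 (adjusted p = 0.926). The outlier spot left out on PNP replicate 2 read 0.56, above all controls. With that spot kept the groups overlapped and the difference was -0.03.

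Control replicate 2 was the lowest control for 9 of 9 ATF4 targets and 7 of 9 ER folding genes, against 41.4% of 12445 genes with 3 control values. Over the ATF4 targets with 6 values, its median deviation from the gene mean was -0.21, while the other controls lay at 0.07 and 0.01 and the PNP arrays at 0.10, -0.01 and 0.04. The PNP arrays thus lay within or close to the range of control replicates 1 and 3. The same array was also the lowest control for 16 of 20 other ATF4-branch genes, a list not used in choosing the members, and for 11 of 15 cytosolic tRNA synthetases. It was so for only 5 of 20 other eIF2 and regulatory genes and 2 of 6 members of the ERAD and ER membrane group. Its 75th percentile, share of probes above background and share of outlier spots lay between those of the other controls, while its median log2 signal was the lowest control value (8.58 against 8.61 and 8.62). This pattern was seen in the values and carries no test.

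**Figure D4:**
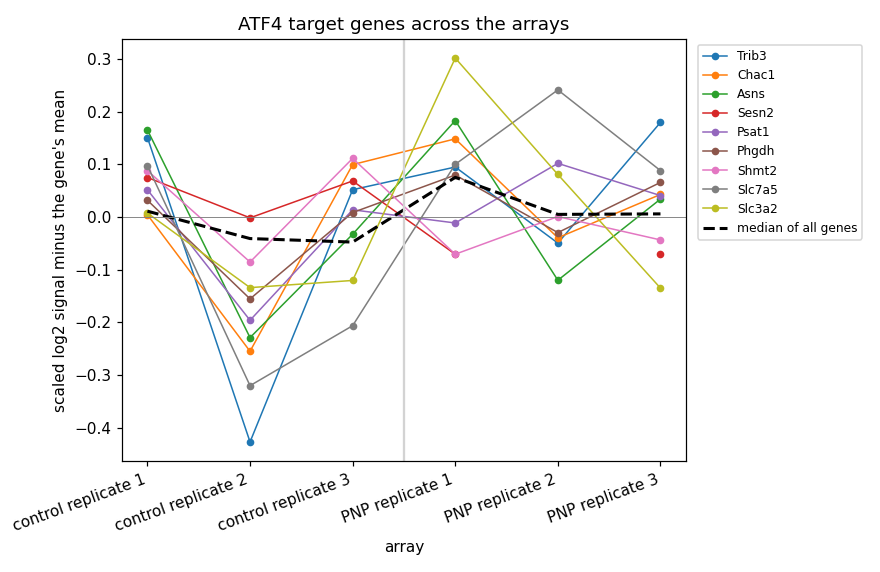
Deviation of each tested ATF4 target gene from its own mean over the arrays (y axis, log2) on the 6 arrays (x axis), with 1 line per gene. The dashed line is the median of all genes with 6 values, which lies at -0.04 on control replicate 2. The median of the ATF4 targets with 6 values, not drawn, was -0.21 there.

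The ER folding genes had the highest median of the roles, 0.15, with 8 of 9 tested differences positive. Sdf2l1, a partner of the chaperone BiP, gave 2.53, 2.36 and 2.63 in controls and 2.84 and 2.73 in PNP replicates 1 and 3. Both PNP values lay above all controls, but PNP replicate 2 had no usable spot (1.21-fold, 95% interval 0.992 to 1.48; adjusted p = 0.774). Creld2 gave 2.52, 2.60 and 2.34 in controls and 2.76, 2.71 and 2.65 with PNP. All 3 PNP arrays lay above the controls (1.16-fold, 95% interval 0.991 to 1.37; adjusted p = 0.791).

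Hyou1, an ER chaperone of the HSP70 class, had the widest interval of this role, with -2.32, -2.72 and -2.60 in controls and -2.77, -2.04 and -2.27 with PNP. Its lowest and highest arrays were both PNP arrays (difference 0.19 ± 0.19, adjusted p = 0.945). The disulfide isomerases P4hb, Pdia6 and Pdia4 differed by 0.15 ± 0.12, 0.15 ± 0.10 and 0.05 ± 0.11. The lectin chaperones Canx and Calr, which both hold ERSE, differed by 0.08 ± 0.09 and -0.02 ± 0.10. Manf, a secreted ER stress protein, differed by 0.04 ± 0.10 and gave 3.15, 3.14 and 3.13 in controls against 3.12 and 3.24 in PNP replicates 2 and 3. These PNP values lay on either side of the controls. The outlier spot left out on PNP replicate 1 read 3.72, and with it kept the difference was 0.22. Over the 5 tested members with ERSE, differences ran from -0.02 to 0.22.

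The ERAD and ER membrane group had 6 of 7 genes tested, 5 positive differences and a median of 0.09. Herpud1 gave 2.12, 2.15 and 2.24 in controls and 2.44 and 2.18 in PNP replicates 1 and 2. PNP replicate 2 lay within the control range (difference 0.14 ± 0.12, adjusted p = 0.928). Syvn1 gave 1.46, 1.46 and 1.45 in controls and 1.72 and 1.49 in the same PNP replicates, so that PNP replicate 1 stood apart and PNP replicate 2 lay just above the controls (difference 0.15 ± 0.11, adjusted p = 0.910). Sel1l, the adaptor of Syvn1, and Edem1, which selects misfolded glycoproteins, differed by 0.09 ± 0.10 and 0.09 ± 0.16. Derl1, of the retrotranslocation channel, differed by -0.05 ± 0.13, and Wfs1, an ER membrane protein mutated in Wolfram syndrome, by 0.07 ± 0.16.

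Derl3 was the one member not well above background in controls, and it was not tested. The control signals were -6.24, -6.74 and -6.47, and the PNP signals -5.95, -5.34 and -3.61, of which only PNP replicates 2 and 3 were well above background. PNP replicate 3 stood far above the other 5 arrays. Set against the lowest signal that counted as above background on each control array, or the probe's own where higher, the mean of the 3 PNP arrays was 1.49-fold higher. PNP replicate 1, not well above background, entered that mean with its own signal, so the fold is not a strict lower bound. The 1.49-fold value rests on PNP replicate 3: without that array the PNP mean was -5.65, under the control floor of -5.54, and no fold can be given. With no filter on dim probes the difference was 1.52 (95% interval 0.11 to 2.92; limma adjusted p = 0.522 over 21695 genes).

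The other 4 untested members were above background on all 6 arrays but had too many outlier spots. With outlier spots kept, the amino acid sensor kinase Eif2ak4 (GCN2) differed by -0.09 ± 0.11 and Ppp1r15b, the constitutive eIF2 phosphatase subunit, by -0.13 ± 0.11. The mitochondrial folate enzyme gene Mthfd2 differed by -0.07 ± 0.15 and the isomerase gene Pdia3 by 0.04 ± 0.13. Their adjusted p ran from 0.922 to 0.967 over 15046 genes.

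Outlier spots were more frequent on the PNP arrays, at 11.5 to 13.2% of spots, than on the controls, at 6.53 to 9.07% (exact permutation test, two-sided p = 0.1, the smallest that 3 against 3 arrays allow). Of the 34 tested members, 22 had all 6 values, against 11110 of the 13138 genes. A value was lacking on a PNP array for 11 members and on a control array for 1. Of the PNP spots left out, all but that of Wfs1 read above every control of the gene. The part of this imbalance in outlier spots in the results was not tested beyond keeping those spots. With them kept, 30 of 38 members were positive and none passed the threshold.

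Where several probes of a gene were tested, the brightest gave the values above. For 9 members more than 1 probe was tested, and all probes had 1 sign for 7 of them. Psat1 differed by 0.09 on one probe and -0.16 on the other, and Sel1l by 0.09 and -0.09. A second Herpud1 probe gave 0.30 ± 0.13 against 0.14 on the brightest. Its outlier spot left out on PNP replicate 2 read -0.36, below every control of that probe. With that spot kept the difference on this probe was 0.11 ± 0.18.

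All arrays lay on 1 slide, on which PNP replicate 2 shared odd columns with control replicates 1 and 3, and control replicate 2 shared even columns with PNP replicates 1 and 3. Within odd columns 15 of 31 members were higher with PNP, with a median of -0.0021 (all genes 0.01). Within even columns 29 of 34 were higher, with a median of 0.20 (all genes 0.08). These values carry no test, since each column class holds 1 array of one group, and the even columns rest on control replicate 2.

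Of the 8 ATF4 targets with a value in both column classes, 5 had opposite signs in them, and Slc7a5, Slc3a2 and Psat1 were positive in both. Trib3 differed by -0.15 within odd and 0.56 within even columns, Asns by -0.19 and 0.34, and Chac1 by -0.09 and 0.35. Slc7a5 differed by 0.30 and 0.41. Positive in both were also Creld2 at 0.28 and 0.11 and Ppp1r15a at 0.14 and 0.27. Atf3 was negative in both, at -0.11 and -0.20, and no other member was. Positive differences in both column classes were found for 12 of 31 members (38.7%), against 33.5% of all genes.

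**Figure D5:**
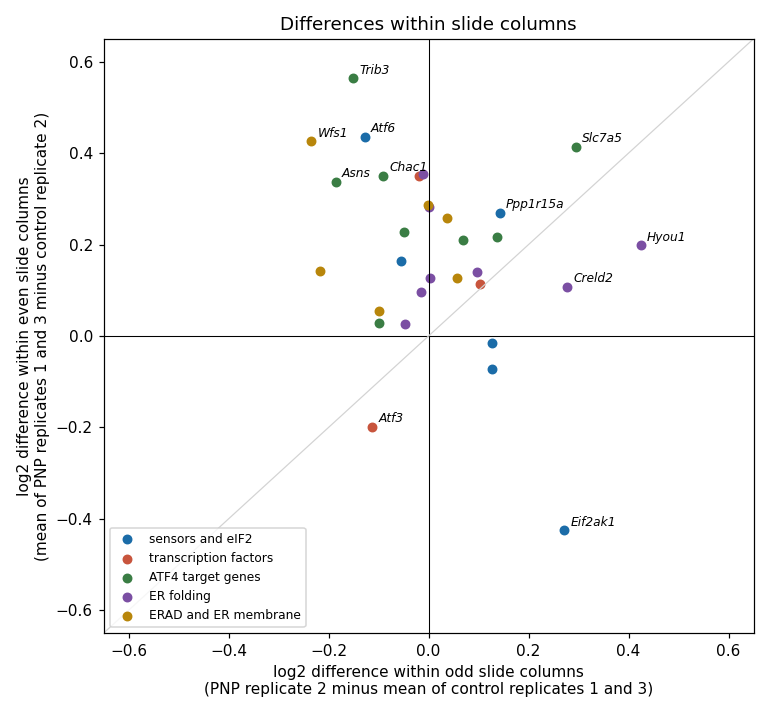
Log2 difference of each member with a value in both column classes, within odd columns (x axis, PNP replicate 2 minus control replicates 1 and 3) and within even columns (y axis, PNP replicates 1 and 3 minus control replicate 2), coloured by role. The diagonal marks equal differences, and Trib3 (-0.15 and 0.56) and Eif2ak1 (0.27 and -0.43) lie farthest from it in opposite directions.

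A further 114 genes of the same pathways were listed beside the members, of which 91 were tested. None passed an adjusted p of 0.05, 1 had an unadjusted p under 0.05, and 53 were positive, with a median of 0.03. Other ER chaperones had 12 of 15 positive differences and a median of 0.10. Hspa5, which encodes BiP and holds ERSE, differed by 0.11 ± 0.14 with an adjusted p of 0.950, and is given beside the naming rule as the best known target of the pathway. Ppib, a proline isomerase, differed by 0.22 ± 0.10 (adjusted p = 0.766), and Sil1, the nucleotide exchange factor of BiP, by 0.20 ± 0.13.

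Other ATF4-branch genes had 9 of 23 positive differences and a median of -0.04, with Shmt1 at -0.28 ± 0.18 and Slc1a4 at 0.11 ± 0.09. The cytosolic tRNA synthetases, many of which ATF4 is known to raise, had 10 of 15 positive and a median of 0.05. Kars, the lysyl-tRNA synthetase, was the gene under an unadjusted p of 0.05, at 0.27 ± 0.11 (adjusted p = 0.756), on 2 PNP values, and Gars differed by 0.16 ± 0.11. Other ERAD and ER transport genes had 9 of 17 positive, with the ERAD lectin gene Os9 at -0.25 ± 0.12 and the VCP cofactor gene Ufd1 at -0.15 ± 0.10. Other eIF2 and regulatory genes had 13 of 21 positive, led by Eif2b5, of the eIF2 exchange factor, at 0.15 ± 0.11 and Mbtps2, a protease that cleaves ATF6, at 0.11 ± 0.10.

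Of the 10 Leydig cell markers, Star, Nr5a1 and Gata4 were well above background on all 6 arrays, and Cyp11a1, Hsd3b6, Hsd17b3 and Lhcgr on none. Cyp17a1 was so on 3 control and 2 PNP arrays, and Hsd3b1 on 1 control array at most and no PNP array. Insl3 had no named probe. All 8 peritubular myoid and fibroblast markers were above background on all arrays. So were 4 of 8 Sertoli, 5 of 8 germ cell, 4 of 6 macrophage and leukocyte and 0 of 4 endothelial markers. In RNA of a whole culture, fewer cells with a transcript and less of it per cell cannot be told apart. The 2 groups had 62.1 ± 0.24% and 61.6 ± 1.47% of probes above background (SD, n = 3 each).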

How the data were processed

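Each sample file is the Agilent scanner output of 1 array, holding processed red-channel intensity per spot, background-subtracted by the authors with Feature Extraction (10.7 in the submitters' processing notes, 11.5.1.1 per the file headers). The labels name Cy3, while the deposited files hold red-channel columns. The value table holds the authors' normalized log2 values, whose sorted columns are nearly identical, as quantile normalization leaves them, and whose method no source used here gives.

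Control spots were left out, signals were divided by the 75th percentile of each array, and log2 was taken. Outlier spots counted in that percentile and were left out of the scaled values. No spot was saturated. Probes were named through their transcript accession in RefSeq tables: 33767 of 56605 probes, 23462 symbols. A probe was tested where all 3 arrays of a group showed it well above background and it had at least 2 values in each (27222 probes). The brightest tested probe stood for a gene. The groups were compared with limma 3.58.1 (lmFit, eBayes, R 4.3.3), without covariates, and p-values were adjusted over 13138 genes by Benjamini-Hochberg. The fit was tested on simulated data. Precision is limited by how few arrays there are.

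The members and lists were chosen with earlier results of these data known. The text names all members, and the 2 genes of smallest p in each further list. Alternatives covered scaling, background correction, filters, probe choice, slide position, the replicate number and each array in turn. Replicate numbers are the labels' own, and same-numbered deviations from the group means correlated at -0.31, -0.22 and -0.03. Same-numbered arrays always lay in opposite column classes of the slide, odd against even. These correlations therefore cannot tell whether the numbers pair the samples. Protein sequences were not analysed here.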

Additional observations from a re-analysis of the deposited data

How the results depend on the processing

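No member passed an adjusted p of 0.05 in limma in any of the 19 alternatives that have a test, nor did any other pathway gene. The lowest of a member was 0.337, for Herpud1 without PNP replicate 2, where its second probe stood for the gene. The count of members with an unadjusted p under 0.05 was 0 as reported and at most 4, with the slide row as a block. Of 34 members, 9 kept 1 sign in every alternative that gave them a value (18 for Sdf2l1 and Sesn2, 19 for Syvn1, 21 for the others): Ppp1r15a, Xbp1, Slc7a5, Sdf2l1, Creld2, Pdia6 and Syvn1 were positive, Atf3 and Sesn2 negative. The other 25 took the opposite sign in at least 1. Some alternatives changed the probe that stood for a gene, as for Eif2ak3 with outlier spots kept.

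The median of the members relative to all genes, 0.05 as reported, was -0.0091 with no filter on dim probes and -0.012 within odd slide columns. It was 0.12 within even slide columns and 0.096 with the slide row as a block, which compares PNP replicate 1 alone with the controls. Above the all-gene median lay 25 of 34 members as reported, 16 of 35 with no filter and 13 of 31 within odd columns, where 15 of 31 had a higher signal. The cause was not tested. Leaving out each array in turn gave relative medians from 0.00099 to 0.076, and without control replicate 2 there were 17 of 33 members above the all-gene median. With the replicate block, 0 members passed, 27 of 34 were positive and the relative median was 0.043. Leaving out each array gave 0 to 23 genes past the threshold over the whole array (23 without PNP replicate 1), none of them members. The counts above the all-gene median, of unadjusted p and over other genes were added after seeing the data. With 3 arrays a group, a typical member's interval reached 0.27 (1.21-fold) to either side.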
